A study of Canis lupus familiaris with 10 samples.

Results

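KLRB1, KLRD1, KLRK1, NCR1 and NCR3 are receptors best known from natural killer (NK) cells. They were 5 of the 800 genes of a canine immuno-oncology probe panel. They were chosen by symbol, with no measured value in the rule, but with earlier results of these data known. All 5 had a probe, and each symbol matched exactly 1 dog gene in RefSeq. KLRB1, KLRD1 and KLRK1 lie on chromosome 27 in that annotation, NCR1 on chromosome 1 and NCR3 on chromosome 12.

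Levels were measured in canine cutaneous histiocytoma (CCH), a skin tumour of mostly young dogs that is derived from Langerhans cells and usually regresses on its own. RNA came from formalin-fixed, paraffin-embedded tissue and was counted on the NanoString nCounter, which tallies colour-coded barcodes on hybridised probes without amplification. The 5 early CCH were group 1 of the Cockerell and Slauson scheme, from French Bulldogs, a Goldendoodle, a Terrier and a Boxer aged 0.5 to 5 years where an age was given (4 of 5). The 5 late CCH were group 3, which the labels call lymphocyte enriched, so a higher lymphocyte content is part of the group's definition, and came from a Rottweiler, a Beagle, a Pug, a Bullterrier and a Jack Russell Terrier aged 1.5 to 9 years. Both groups held dogs of both sexes (sex was not stated for 1 early tumour), every tumour came from a different dog, no treatment was given in the labels, and all samples were whole tumour tissue, so cell types were not separated. In such tissue a lower value from fewer cells of a type cannot be told apart from less RNA per cell.

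NK cells read their targets through a balance of activating and inhibitory receptors. KLRK1 (NKG2D), NCR1 (NKp46) and NCR3 (NKp30) are activating receptors that hand their signal to small adaptor proteins, KLRD1 (CD94) pairs with NKG2 proteins to sense MHC class I related molecules, and KLRB1 (CD161) binds lectin-like ligands. Several of them, KLRK1 and KLRD1 in particular, are also carried by cytotoxic T cells, and KLRB1 by other T cell subsets, so in bulk tissue none of them counts NK cells alone.

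Of the 5 receptors, KLRK1 and NCR1 were higher in late CCH, KLRD1 was higher in late CCH by the less strict of 2 adjustments, and KLRB1 and NCR3 passed neither. A call required at least a 2-fold change and, in limma, a p of at most 0.05 after Benjamini-Yekutieli (BY) adjustment, and the p after Benjamini-Hochberg (BH) adjustment is given beside it. That made 2 of 5 receptors called, against 11.2% of the 761 genes tested, and both were called as higher in late CCH, against 9.20% of genes tested. At the same limits, with the test of the nCounter software, the authors reported no differentially expressed gene in the nCounter data of these stages. With geometric mean scaling 0 of 5 were called, although KLRK1, NCR1 and KLRD1 still passed BH as higher in late CCH, and with quantile normalization NCR1 alone was called. By BH alone 3 of 5 passed, against 35.7% of genes tested, and all 3 were higher in late CCH, against 27.3% of genes in that direction and 8.41% in the other. The median log2 fold change of the 5, early minus late, was -1.71, and that of all genes tested was -0.18.

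**Figure D1:**
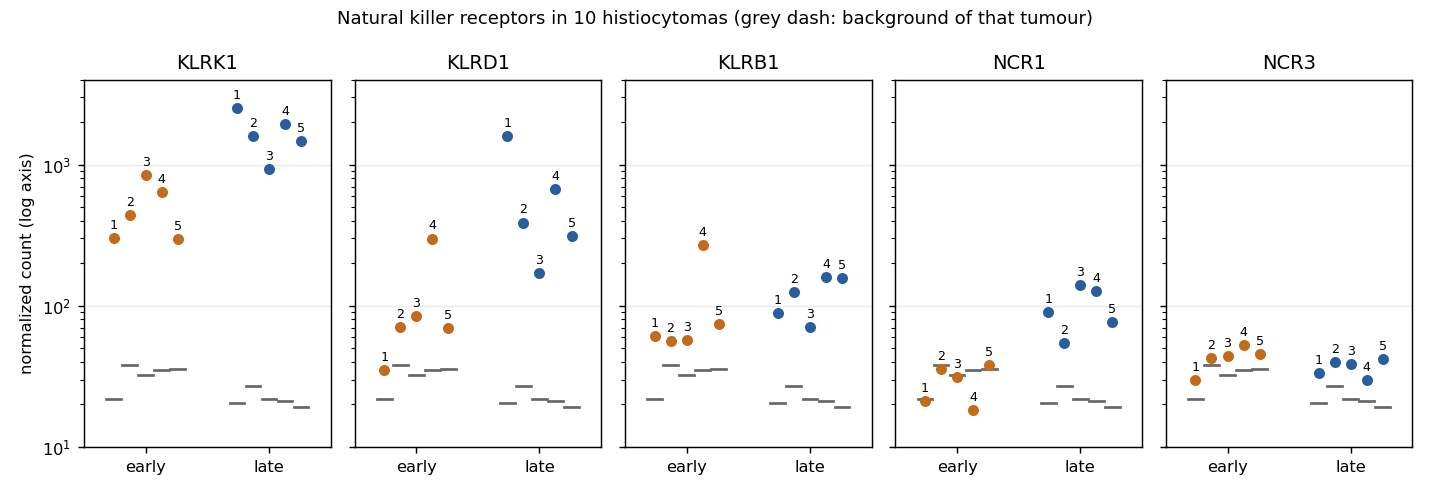
Normalized count (log axis) of each receptor in 5 early and 5 late CCH, each point 1 tumour with its replicate number, and the grey dash the background of that tumour (mean plus 2 SD of its 8 negative probes). The late points of KLRK1 and NCR1 all lie above the early points, NCR1 lies at or under the dash in 4 of 5 early tumours, and NCR3 stays close above it at both stages.

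KLRK1, the NKG2D receptor for stress-induced MHC class I like ligands, was measured far above background in every tumour. Its normalized counts were 301.51, 439.31, 838.97, 644.09 and 299.38 in early CCH 1 to 5. In late CCH 1 to 5 they were 2505.36, 1604.62, 938.03, 1955.79 and 1478.73. The groups did not overlap, with early 3 and late 3 the closest to each other, and 24.6% of genes tested shared this absence of overlap. The mean was 505 ± 234 in early and 1697 ± 582 in late CCH (SD, n = 5 each), a log2 fold change of -1.80 (SE 0.35, 95% interval -2.57 to -1.02), or 3.47-fold higher in late CCH. In limma the BY adjusted p was 0.0293 and the BH adjusted p 0.00406. The exact two-sided permutation p was 0.00794, the smallest that 5 against 5 tumours allow. The BY adjusted p lay between 0.0177 and 0.0887 when 1 tumour at a time was left out and passed in 3 of these 10 fits, those without early 3, early 4 or late 3, while the log2 fold change stayed between -2.01 and -1.64.

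KLRD1, the CD94 chain, varied more between tumours than any other of the 5 receptors. Its normalized counts were 34.91, 71.24, 84.45, 299.81 and 70.11 in early CCH 1 to 5. In late CCH 1 to 5 they were 1588.80, 389.27, 171.63, 674.22 and 313.25. The groups overlapped in 1 pair of tumours, since early 4 exceeded late 3. The means were 112 ± 107 (SD, n = 5) and 627 ± 568 (SD, n = 5), a log2 fold change of -2.45 (SE 0.66, 95% interval -3.91 to -0.98), or 5.45-fold higher in late CCH. In limma the BH adjusted p was 0.0170 and the BY adjusted p 0.122, so KLRD1 was not called, and the exact two-sided permutation p was 0.0159. The call was gained without early 4 (-2.90, BY adjusted p 0.0486) and without housekeeping scaling (-2.99, BY adjusted p 0.0141), and missed in the other 9 fits with a tumour left out, at -2.81 without late 3 (BY adjusted p 0.0808).

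KLRB1, the CD161 lectin-like receptor, was not shown to differ. Its normalized counts were 61.36, 55.97, 56.91, 268.51 and 73.90 in early CCH 1 to 5. In late CCH 1 to 5 they were 89.30, 124.96, 71.24, 159.73 and 157.70. Early 4 held the highest value of all 10 tumours, and the other 4 early tumours lay below every late tumour except that early 5 exceeded late 3. With means of 103 ± 92.6 (SD, n = 5) and 121 ± 39.8 (SD, n = 5), the log2 fold change was -0.47 (SE 0.45, 95% interval -1.46 to 0.53). In limma the BH adjusted p was 0.436 and the BY adjusted p 1, and the exact two-sided permutation p was 0.381. Without early 4 the log2 fold change was -0.89 (BH adjusted p 0.0375, BY adjusted p 0.270 in limma). The sign also turned with the scaling, to 0.12 after quantile normalization, so no direction is given for KLRB1. Relative to the median of all genes tested it was -0.29 as deposited and -0.09 after quantile normalization.

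NCR1, the NKp46 receptor, regarded in many species as the most NK-restricted of the 5, lay near the negative probes in early CCH. Its normalized counts were 21.16, 35.62, 31.21, 18.12 and 37.90 in early CCH 1 to 5. In late CCH 1 to 5 they were 90.54, 54.19, 140.33, 128.16 and 76.69. The groups did not overlap, and the lowest late tumour was late 2. Only early 5 of the early tumours exceeded its own background, by 1.07 times, and the early values ranged from 0.515 to 1.07 times background. All 5 late tumours exceeded theirs, by 2.01 to 6.43 times. Counts before scaling, inferred from the step between deposited values, were 11 to 21 in early and 49 to 138 in late CCH.

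The means of NCR1 were 28.8 ± 8.77 in early and 98.0 ± 35.8 in late CCH (SD, n = 5 each), a log2 fold change of -1.71 (SE 0.31, 95% interval -2.40 to -1.01), or 3.26-fold higher in late CCH. In limma the BY adjusted p was 0.0238 and the BH adjusted p 0.00330, and the exact two-sided permutation p was 0.00794. Because the early values mostly did not rise above background, the size of the fold rested on how background was handled: it was -1.26 on the log2 scale with a floor at the highest background of the 10 tumours and -3.04 after background subtraction, and the call held both ways. Leaving out 1 tumour at a time moved the BY adjusted p between 0.0344 and 0.0800. It passed in 6 of these 10 fits and missed without early 1, late 1, late 4 or late 5.

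NCR3, the NKp30 receptor, was low at both stages. Its normalized counts were 29.62, 42.40, 44.06, 52.71 and 45.48 in early CCH 1 to 5. In late CCH 1 to 5 they were 33.49, 39.81, 38.86, 29.72 and 42.13. The groups overlapped throughout, and all 10 values were above their own background, by 1.11 to 1.50 times in early and 1.41 to 2.20 times in late CCH. The means were 42.9 ± 8.38 (SD, n = 5) and 36.8 ± 5.07 (SD, n = 5), a log2 fold change of 0.20 (SE 0.19, 95% interval -0.23 to 0.63). In limma the BH adjusted p was 0.439 and the BY adjusted p 1, and the exact two-sided permutation p was 0.214. The inferred counts behind these values were 24 to 32 in early and 27 to 39 in late CCH. Its value was -0.34 without housekeeping scaling and 0.58 (BH adjusted p 0.0214 in limma) with geometric mean scaling, which shift all genes alike. Relative to the median of all genes tested it was 0.38 as deposited and with geometric mean scaling and 0.39 without housekeeping scaling.

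**Figure D2:**
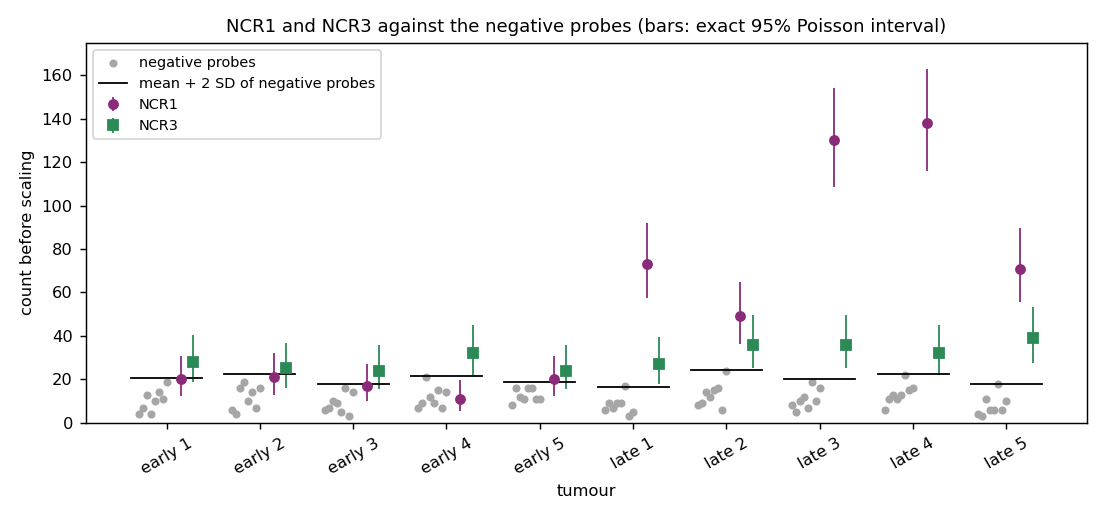
Inferred counts before scaling of NCR1 (circles) and NCR3 (squares) in each tumour with exact 95% Poisson intervals, which cover counting error only, beside the 8 negative probes (grey) and their mean plus 2 SD (line). NCR1 lies among or next to the negative probes in the early tumours, at 11 to 21 counts, and clear of them in the late tumours, at 49 to 138, whereas NCR3 stays between 24 and 39 counts throughout.

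How many early tumours NCR1 exceeded background in depended on the definition of background. The number was 0 of 5 with the mean plus 3 SD, 4 of 5 with the highest negative probe and 4 of 5 with the mean of the negative probes alone. NCR1 exceeded background in 5 of 5 late tumours by each definition. For NCR3, 4 of 5 early tumours exceeded the mean plus 3 SD.

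The stages also differed in depth and RNA quality, which bears on all 5 receptors. Inferred counts before scaling summed to between 484696 and 823763 per early tumour and between 945399 and 1253083 per late tumour, and background after scaling was 21.8 to 38.2 normalized counts in early and 19.2 to 26.9 in late CCH. The share of RNA fragments over 200 bases (DV200), per the labels, was 64.5% to 71.2% in early and 71.2% to 75.8% in late CCH. With DV200 as a covariate in limma, the log2 fold changes were -1.52 for KLRK1 (BH adjusted p 0.126, BY adjusted p 0.910), -1.94 for NCR1 (0.0505 and 0.364) and -2.73 for KLRD1 (0.141 and 1). Thus 0 of 5 receptors passed BH in that fit, against 3 of 5 without the covariate. No gene of the panel was called in that fit, in which 45 passed BH and 197 had an unadjusted p under 0.05. Each stage was hybridised on a cartridge of its own and no RNA extraction batch held both stages, so cartridge, extraction and stage cannot be told apart.

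The receptors were then set against each other within each tumour, which removes any scaling error common to all probes of a tumour. The 10 pairs of log2 ratios were compared between stages by exact two-sided permutation tests, with BH adjustment over the 10. Since probes of different genes count with different efficiency, the ratios were compared between stages only and not read as relative abundance.

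The ratios of KLRK1, NCR1 and KLRD1 to NCR3 differed between the stages. NCR3 lay only 1.11 to 2.20 times above background, so its own change, and with it the size of these differences, is not firm. No ratio was run after background subtraction. The log2 ratio of KLRK1 over NCR3 was 3.43 ± 0.55 in early and 5.43 ± 0.67 in late CCH (SD, n = 5 each), a difference of -2.00 (exact permutation p 0.00794, BH adjusted 0.0265). That of NCR1 over NCR3 differed by -1.91 (exact permutation p 0.00794, BH adjusted 0.0265), or by -1.42 with a floor at the highest background. NCR1 was mostly not above background in early CCH, so this size is not firm. Neither ratio overlapped between the stages. That of KLRD1 over NCR3 differed by -2.65 (exact permutation p 0.0159, BH adjusted 0.0397), with overlap.

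KLRB1 and KLRD1, both encoded in the NK gene complex, also parted. Their log2 ratio was -0.04 ± 0.52 in early and -2.02 ± 1.25 in late CCH (SD, n = 5 each), a difference of 1.98 without overlap (exact permutation p 0.00794, BH adjusted 0.0265). Early 4, which stood out in both genes, did not stand out in their ratio, which ran from -0.56 to 0.80 over the early tumours. In late CCH the ratio ran from -4.14 in late 1 to -0.99. With 1 tumour left out, the 4 ratios that passed kept their sign in all 10 fits. KLRB1 over KLRD1, KLRK1 over NCR3 and NCR1 over NCR3 stayed without overlap in each, at the smallest exact p of 4 against 5 tumours, 0.0159. After adjustment this passed without early 3, early 4 or late 3 (BH adjusted exact permutation p 0.0397) and not otherwise (0.0529). Whether it passed depended on another pair reaching the same p, so these misses do not measure stability. KLRD1 over NCR3 passed only without early 4 or late 3, with 0.0635 to 0.0794 otherwise.

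The remaining 6 pairs did not pass. KLRK1 over NCR1 was 4.02 ± 0.86 in early and 4.11 ± 0.86 in late CCH (SD, n = 5 each), a difference of -0.09 (exact permutation p 0.849, BH adjusted 0.849) that turned sign in 4 of 10 fits with a tumour left out and ranged from -0.43 to 0.18. NCR1 was not above background in 4 of 5 early tumours, so the sizes of its ratios are not firm: with a floor at the highest background, KLRK1 over NCR1 differed by -0.54, KLRD1 over NCR1 by -1.16 and KLRB1 over NCR1 by 0.79, none of them past the threshold. KLRD1 over KLRK1 differed by -0.65 (exact permutation p 0.230, BH adjusted 0.288). KLRB1 over KLRK1 differed by 1.33 (exact permutation p 0.0397, BH adjusted 0.0794), which misses the threshold after adjustment but passed without early 3 (1.68, BH adjusted 0.0397). KLRB1 over NCR1 differed by 1.24 (BH adjusted 0.172), KLRB1 over NCR3 by -0.67 (BH adjusted 0.238) and KLRD1 over NCR1 by -0.74 (BH adjusted 0.459), all by the same exact permutation test.

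T cell markers were higher in the late group, which the labels define by its lymphocytes, as were KLRK1, NCR1 and, by BH, KLRD1. All 13 T cell markers passed BH as higher in late CCH, against 27.3% of genes tested, 3 of them were called (CD4, CD5 and CD6), against 9.20%, and their median log2 fold change was -2.88. The count called was 7 without early 3, 1 without early 5, late 1 or late 4, and 13 without housekeeping scaling. CD6 (-3.23) and CD3E (-3.18) were the most negative, and TRAT1 (-1.97) and CD2 (-2.37) the least. Their summed level ran from 677 to 12474 normalized counts in early and from 18823 to 32675 in late CCH, and none was at 0 in any tumour. CD3D, CD3E and CD3G, the invariant chains of the T cell receptor complex, had a mean log2 level of 4.77, 8.31, 10.37, 9.66 and 7.18 in early CCH 1 to 5 and of 10.63 to 11.16 in late CCH. In early 1, CD3D (19.04) was under and CD3G (22.22) barely over the background of 21.8. The ratio of each receptor to these 3 genes was taken in the same tumour as a description, and the part of T cells in the receptor differences was not tested.

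**Figure D3:**
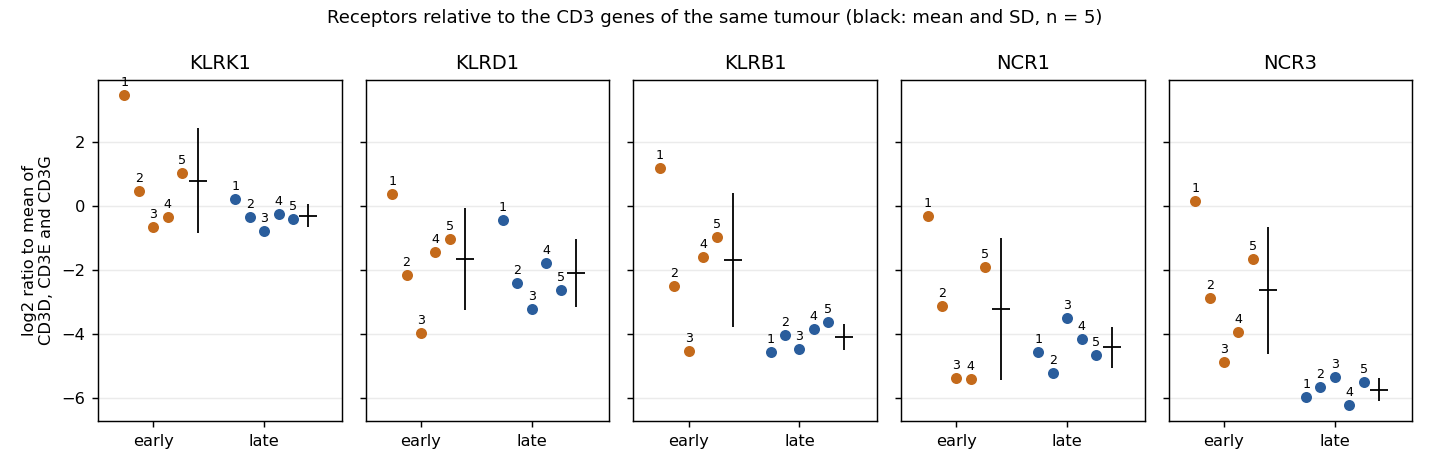
Log2 ratio of each receptor to the mean of CD3D, CD3E and CD3G in the same tumour, numbered by replicate, with the mean and SD of each stage in black (n = 5). Heights are not comparable between panels. The early tumours spread widely, from 3.47 in early 1 to -0.65 in early 3 for KLRK1, and only for NCR3 do the stages not overlap.

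Relative to the CD3 genes, KLRK1, KLRD1 and NCR1 were not shown to differ between stages, and the early tumours spread widely. The log2 ratio of KLRK1 was 0.80 ± 1.64 in early and -0.30 ± 0.36 in late CCH (SD, n = 5 each), a difference of 1.10 (exact permutation p 0.159, BH adjusted over 5 ratios 0.265). For KLRD1 the difference was 0.45 (exact permutation p 0.611, BH adjusted 0.611), and for NCR1 it was 1.19 (exact permutation p 0.286, BH adjusted 0.357). In early 1, where 2 of the 3 CD3 genes were at background, the KLRK1 ratio was 3.47 and its size is not firm, and over the other 9 tumours it lay between -0.76 and 1.05. With 1 tumour left out the differences ranged from 0.43 to 1.46 for KLRK1 and from 0.46 to 1.74 for NCR1.

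NCR3 was lower relative to the CD3 genes in late CCH. Its ratio was -2.63 ± 1.97 in early and -5.72 ± 0.36 in late CCH (SD, n = 5 each), a difference of 3.10 without overlap (exact permutation p 0.00794, BH adjusted 0.0397). NCR3 itself differed by 0.20 on the log2 scale, so the CD3 genes carried most of this difference. With 1 tumour left out it passed only without early 3, at 3.66, and the BH adjusted exact permutation p was otherwise up to 0.0794. The stages stayed without overlap in each of these fits, at the smallest exact p of 4 against 5 tumours, 0.0159. That p cannot pass after adjustment over 5 ratios unless another ratio reaches it too, so these misses do not measure stability. The KLRB1 ratio differed by 2.43 (exact permutation p 0.0397, BH adjusted 0.0992) and passed only without early 3 (3.14, BH adjusted 0.0397).

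The panel held 10 of 16 further receptors of NK cells from a fixed list, all of them tested. SLAMF7 alone was called, against 9.20% of genes tested called as higher in late CCH, 5 of 10 passed BH in that direction, against 27.3%, none passed as higher in early CCH, and the median log2 fold change was -1.63. With 1 tumour left out the count called in this list lay between 0 and 2. SLAMF7 (CRACC), an activating receptor that is also found on plasma cells, had a mean of 154 ± 91.7 in early and 609 ± 151 in late CCH (SD, n = 5 each), with a log2 fold change of -2.13 (SE 0.38, BY adjusted p 0.0208 in limma). TIGIT, an inhibitory receptor shared with T cells, was at 20.10 to 304.75 normalized counts in early and 399.39 to 879.36 in late CCH, without overlap (log2 fold change -2.35, BH adjusted p 0.0170 in limma). CD96, which shares ligands with TIGIT, SLAMF6, a homotypic receptor of lymphocytes, and CD160, a receptor for HVEM, passed BH with log2 fold changes of -2.04, -1.86 and -1.66. CD160 no longer passed with geometric mean scaling or quantile normalization (BH adjusted p 0.0703 and 0.0844 in limma). It exceeded background in 3 of 5 early tumours and also missed with a floor at the highest background (-1.31, BH adjusted p 0.0692 in limma), so its size is not firm.

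**Figure D4:**
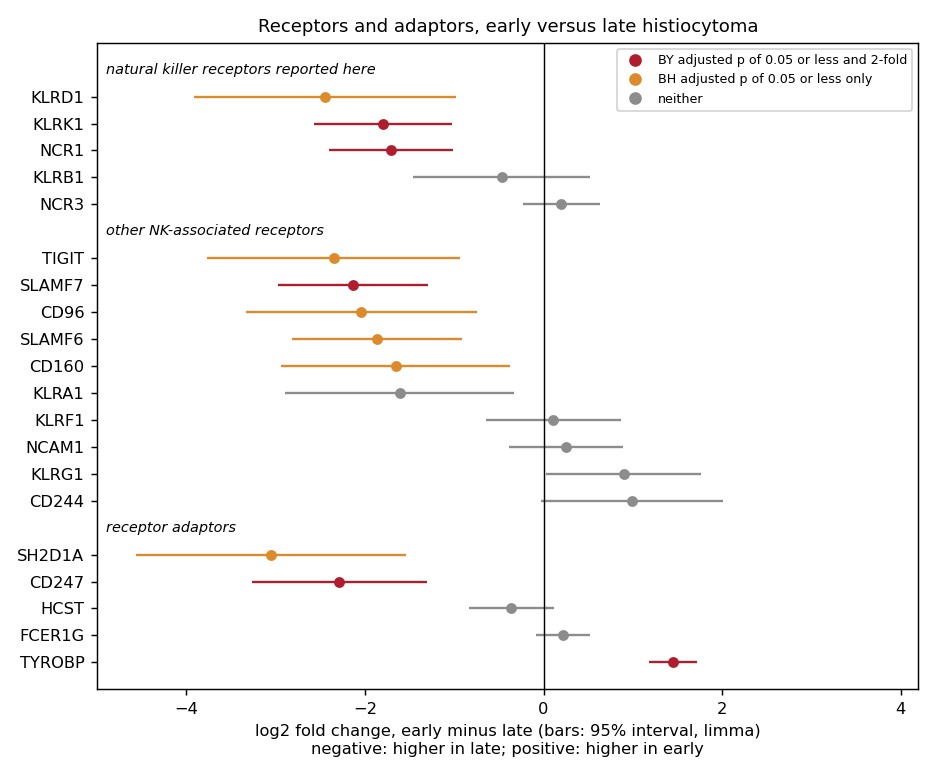
Log2 fold change, early minus late, with its 95% interval from limma for the 5 receptors, 10 further NK-associated receptors and 5 adaptors. Red points were called, orange points passed BH only and grey points passed neither. Most points lie left of 0, higher in late CCH, and TYROBP alone is red on the right.

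The other 5 receptors did not pass with the deposited scaling. KLRA1, a receptor of the Ly49 family, had a log2 fold change of -1.61 (BH adjusted p 0.0521 in limma), and its late values ran from 80.96 in late 3 to 707.65 in late 4. It passed BH with DV200 as a covariate (-3.05, BH adjusted p 0.0389) and without housekeeping scaling (-2.16, BH adjusted p 0.00873). With DV200 as a covariate none of the 5 further receptors that had passed BH still did so, their BH adjusted p running from 0.125 for SLAMF7 to 0.382 for CD160. KLRG1, an inhibitory receptor of mature NK and T cells, had a mean of 774 ± 453 in early and 388 ± 165 in late CCH (SD, n = 5 each) (log2 fold change 0.90, BH adjusted p 0.0986 in limma). CD244 (2B4), a SLAM family receptor, had a log2 fold change of 0.99 (BH adjusted p 0.119 in limma). With geometric mean scaling both passed BH as higher in early CCH, KLRG1 at 1.29 and CD244 at 1.38 (BH adjusted p 0.0395 and 0.0287 in limma). KLRF1 (NKp80), an activating receptor, had a log2 fold change of 0.11 (BH adjusted p 0.834 in limma). NCAM1 (CD56), a classical NK marker in people, exceeded background in 1 of 5 early and 3 of 5 late tumours, with a log2 fold change of 0.25 (BH adjusted p 0.520 in limma).

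Of 5 adaptors through which these receptors signal, 1 was called in each direction, against 11.2% of genes tested called in either. The count called in this list fell to 1 in 7 of 10 fits with a tumour left out. CD247, the zeta chain used by NCR1, NCR3 and the T cell receptor, was called as higher in late CCH. Its values were 8.46, 25.44, 44.06, 44.48 and 11.37 in early and 101.70, 89.58, 140.33, 113.30 and 115.58 in late CCH, and it exceeded background in 2 of 5 early and 5 of 5 late tumours. Its log2 fold change was -2.29 (SE 0.44, BY adjusted p 0.0293 in limma), and -1.43 (BY adjusted p 8.16e-04) with a floor at the highest background, so its size is not firm.

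TYROBP (DAP12), an adaptor shared by NK cells and myeloid cells, was called in the other direction, against 1.97% of genes tested called as higher in early CCH. Its mean was 12339 ± 1179 in early and 4515 ± 413 in late CCH (SD, n = 5 each), without overlap (log2 fold change 1.45, SE 0.12, BY adjusted p 0.00143 in limma). TYROBP and CD247 kept these opposite signs under every scaling, although without housekeeping scaling TYROBP fell short of the call at 0.89 (BY adjusted p 0.0666). SH2D1A (SAP), the adaptor of the SLAM receptors, passed BH only, with a log2 fold change of -3.05 (BH adjusted p 0.00808, BY adjusted p 0.0583 in limma). With DV200 as a covariate TYROBP was 1.46 and passed BH but was not called (BH adjusted p 0.00707, BY adjusted p 0.0510 in limma). In that fit neither CD247 nor SH2D1A passed BH (adjusted p 0.163 and 0.206).

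HCST (DAP10), the adaptor of KLRK1, was low. It exceeded background in 1 of 5 early and 5 of 5 late tumours, with means of 29.3 ± 8.27 and 36.8 ± 3.71 (SD, n = 5 each) and a log2 fold change of -0.36 (BH adjusted p 0.216 in limma), which was 0.02 with geometric mean scaling and -0.89 without housekeeping scaling (BH adjusted p 0.00194). FCER1G, the gamma chain that can serve NCR1, had a log2 fold change of 0.22 (BH adjusted p 0.244 in limma). It passed BH as higher in early CCH with geometric mean scaling (0.61, BH adjusted p 0.0364) and quantile normalization (0.45, BH adjusted p 0.0266) and was -0.34 without housekeeping scaling. Over the further receptors and adaptors together 3 of 15 genes were called, against 11.2% of genes tested, and this count lay between 1 and 5 when 1 tumour was left out (1 without early 5, late 1, late 2 or late 4, and 5 without early 3).

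Among receptor ligands, 9 of 13 listed genes were on the panel and 4 passed BH as higher in late CCH, against 27.3% of genes tested. The MHC class I genes DLA88 (log2 fold change -1.65, BY adjusted p 0.0120) and DLA-64 (-1.59, BY adjusted p 0.00543) were called in limma. These were 2 of 9, against 9.20% of genes tested called as higher in late CCH. DLA genes are near-identical in sequence, and how far their probes tell them apart was not tested. B2M, the shared light chain of class I molecules, and CDH1, the E-cadherin ligand of KLRG1, had the most positive values at -0.06 and 0.27 and did not pass.

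Of 14 cytokines and cytokine receptors that drive NK cells, 5 passed BH as higher in late CCH, against 27.3% of genes tested, and 2 were called, against 9.20%, shares not far from those of the panel. The called genes were IL2RG, the common gamma chain, and IL21R, with log2 fold changes of -2.22 and -2.33 (BY adjusted p 0.00476 and 0.0248 in limma). With 1 tumour left out the count called in this list lay between 1 and 3. IL12RB2 and IL15 had the most positive values at 0.50 and 0.32 and did not pass. The median over the 14 genes was -0.22, close to that of all genes tested.

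Of 10 transcription factors and effectors of NK and cytotoxic T cells, 7 passed BH as higher in late CCH, against 27.3% of genes tested, and the median log2 fold change was -2.35. Of the 10, 1 was called, near the 9.20% of genes tested called as higher in late CCH. This was EOMES, a T-box factor of both lineages, with means of 357 ± 327 (SD, n = 5) and 2401 ± 571 (SD, n = 5) and a log2 fold change of -3.32 (BY adjusted p 0.0297 in limma). No gene of the list was called without early 5, late 1, late 2, late 4 or late 5. NKG7, a granule protein, followed at -2.97. TBX21 and GZMA had the least negative values at -0.67 and -1.52 and did not pass.

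Markers of other cells were examined beside the receptors. Of 7 B cell markers 4 passed BH as higher in late CCH, against 27.3% of genes tested, and CD79A was called, against 9.20%. No B cell marker was called with geometric mean scaling, with quantile normalization or in 7 of 10 fits with a tumour left out. CD79B (-2.60) was the next most negative after CD79A (-2.61), and CD22 (0.17) and BLNK (-0.07) the most positive. CD79B exceeded background in 0 of 5 early tumours, so its size and rank are not firm. Their summed level was 1620 to 2323 in early and 1677 to 8463 in late CCH, the highest in late 3, where MS4A1 was 1039.50 against 54.01 to 210.81 in the other late tumours. Of 7 Langerhans and dendritic cell markers FLT3 and FCER1A were called as higher in early CCH, against 1.97% of genes tested. The count called in this list fell to 1 in 8 of 10 fits with a tumour left out. CD83, a maturation marker, passed BH the other way (log2 fold change -1.30, BH adjusted p 0.0109 in limma), without overlap, followed by ITGAX at -0.11. CD207 (langerin), which defines Langerhans cells, exceeded background in only 1 of 5 tumours at each stage. Of 6 macrophage markers 2 passed BH as higher in late CCH, near the panel's 27.3%, and CD68 was called, against 9.20%. The count called in this list lay between 0 and 2 with a tumour left out. MRC1 had a log2 fold change of 1.00 (BH adjusted p 0.0508 in limma), and the summed level of the 6 was 2746 to 5923 in early and 3817 to 6943 in late CCH. MSR1 (-1.67) and MARCO (-1.65) were the most negative of that list, and MRC1 and CD163 (-0.31) the most positive. Of 3 keratinocyte markers (KRT14 at 0.43, TP63 at 0.56 and EPCAM at 0.89) none was called, and their summed level was 754 to 5760 in early and 538 to 3682 in late CCH. The part of these cells in the receptor differences was not tested.

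The genes most like each receptor were found by the SD, over the 10 tumours, of the log2 ratio between the 2 genes, where 0 would mean a constant ratio. This is a description, because all points share their libraries and the stage difference. KLRK1 ran closest to SLAMF7 (SD 0.27), the phospholipase PLCG1 (0.29) and the chemokine receptor CXCR3 (0.31), against a median SD of 1.14 over all genes tested. KLRD1 had no gene as close, with CD160 at 0.72, CXCR3 at 0.76 and CD27, a costimulatory receptor, at 0.81 (median 1.68).

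NCR1 ran closest to complement C3 (0.43), TNFRSF13B (TACI, 0.48) and SIGIRR (0.48), against a median of 1.11. These SDs rest in part on background values, since NCR1 exceeded background in 1 of 5 and TNFRSF13B in 2 of 5 early tumours. KLRB1 was nearest to the nuclear receptor RORA (0.42), NFATC2 (0.50) and CD1C (0.55), against a median of 0.95, although CD1C exceeded background in 0 of 5 early tumours. For NCR3 the closest genes were BMI1, PTHLH and CD47, at 0.18, 0.18 and 0.20, against a median of 0.60, genes whose own log2 fold changes were 0.11, 0.32 and 0.00.

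**Figure D5:**
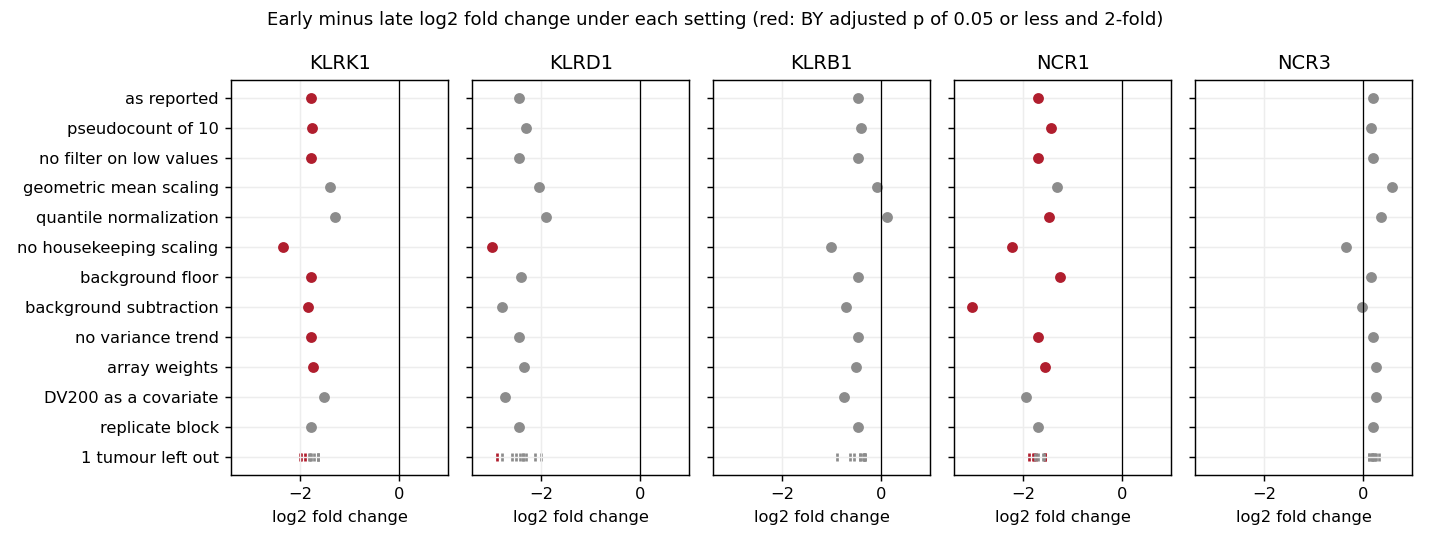
Log2 fold change, early minus late, of each receptor under each processing setting, with the 10 fits that leave out 1 tumour as ticks in the last row. Red marks a call (BY adjusted p of at most 0.05 and 2-fold). KLRK1, KLRD1 and NCR1 stay left of 0 in every setting run, and KLRB1 and NCR3 cross it.

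Geometric mean scaling, and leaving out housekeeping scaling, moved all receptors together. The median of all genes tested was -0.18 on the log2 scale with the deposited housekeeping scaling, 0.21 with geometric mean scaling or quantile normalization and -0.73 without housekeeping scaling. With the deposited scaling 85 genes were called, 70 higher in late and 15 higher in early CCH. The split was 35 and 42 of 77 with geometric mean scaling, 34 and 47 of 81 with quantile normalization, and 229 and 6 of 235 without housekeeping scaling. Relative to that median, KLRK1 lay at -1.62 as deposited and at -1.61 with geometric mean scaling. NCR1 lay at -1.53 under both, and KLRD1 at -2.27 under both.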

How the data were processed

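Total RNA of 10 tumours was hybridised by the authors to the nCounter Canine IO Panel and imported into nSolver 4.0, where counts were normalised to positive controls and then to housekeeping genes. The deposited signal is therefore a normalized count on a linear scale for 800 genes, beside 6 positive and 8 negative probes that were left unscaled. No background subtraction was stated.

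In every tumour the values stood in steps of 1 size, and division by that step gave the count before scaling for at least 99.4% of genes within 0.0051. The control probes of the same table do not stand in these steps, so the inferred counts are not taken as deposited raw counts, and intervals from them cover counting error only. They served for depth, background and the fit without housekeeping scaling. The authors' count-based test was not used on normalized values.

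Stages were compared in R 4.3.3 with lmFit and eBayes (with trend) of limma 3.58.1, on log2(normalized count + 1), which understates changes of low genes, with late CCH as baseline and genes with a mean of at least 20 (761 of 800). Both p adjustments ran over all genes tested. Ratios were compared by exact permutation in scipy 1.17.1. The test was tried on simulated data first. The members and lists were chosen with earlier results of these data known. Named genes were the 5 receptors, all tested further receptors and adaptors, the 2 most negative and 2 most positive genes of each other list, and the 3 genes most like each receptor. Other markers that are named, such as called genes, MS4A1 and CD207, were picked after their values were seen. Alternatives covered scaling, pseudocount, filter, background, variance model, DV200, replicate block and leaving out each tumour. Sequences of the probes were not analysed here.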

Additional observations from a re-analysis of the deposited data

Results flagged for a closer look

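Single tumours stood far from the other 4 of their stage in 9 of 70 groups of 5 values checked (12.9%). The criterion was the gap to the nearest other tumour as a share of the range, with a limit of 0.71. That limit flags about 5% of groups that are independent and normally distributed. Genes were checked on the linear scale, not on the log2 scale of the tests, and several flags share NCR1 in early 4. The 12.9% therefore cannot be set against 5%.

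Of the receptors themselves, early 4 had 268.51 normalized counts of KLRB1, against 55.97 to 73.90 in the other early tumours, and 299.81 of KLRD1, against 34.91 to 84.45. In early 4 the log2 ratio of KLRB1 over NCR1 was 3.82, that of KLRD1 over NCR1 was 3.98 and that of NCR1 over NCR3 was -1.49. NCR1 in that tumour was 18.12, or 0.515 times its background, so these 3 ratios rest on a value that was not above background and are not firm.

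Among the related genes, KLRG1 was 675.69 in late 2, CD160 was 422.93 and SH2D1A 4323.61 in late 1, and SLAMF6 was 1290.58 in early 3. Their causes were not tested.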

How the results depend on the processing

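KLRK1, KLRD1 and NCR1 were higher in late CCH under each alternative run, but the calls were not stable. With geometric mean scaling KLRK1 was -1.41 and NCR1 -1.32, and with quantile normalization KLRK1 was -1.29, all short of the call. With DV200 as a covariate KLRK1 was -1.52 and NCR1 -1.94, also not called. KLRD1 became called without housekeeping scaling (-2.99), and at -2.45 where BH replaced BY. KLRB1 reversed to 0.12 with quantile normalization, and NCR3 to -0.34 without housekeeping scaling and -0.022 with background subtraction. Relative to the median of all genes tested, KLRB1 with quantile normalization was -0.09 and NCR3 without housekeeping scaling 0.39, which are the signs of the main fit.

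Leaving out 1 tumour at a time, the log2 fold change ranged from -2.90 to -2.01 for KLRD1, -2.01 to -1.64 for KLRK1, -1.90 to -1.56 for NCR1 and 0.12 to 0.33 for NCR3. The differences in log2 ratio ranged from 1.45 to 2.24 for KLRB1 over KLRD1, 1.03 to 1.68 for KLRB1 over KLRK1, -3.03 to -2.18 for KLRD1 over NCR3, -0.43 to 0.18 for KLRK1 over NCR1 (reversed at 0.02, 0.18, 0.08 and 0.10), -1.34 to -0.29 for KLRD1 over NCR1, 0.67 to 1.47 for KLRB1 over NCR1, -0.98 to -0.37 for KLRD1 over KLRK1, -2.21 to -1.81 for KLRK1 over NCR3 and -2.13 to -1.68 for NCR1 over NCR3. For KLRB1 over NCR3 the difference ranged from -1.01 to -0.48. Against the CD3 genes the differences ranged from 1.71 to 3.14 for KLRB1, -0.058 to 1.03 for KLRD1 (reversed at -0.058, without early 1), 0.43 to 1.46 for KLRK1, 0.46 to 1.74 for NCR1 and 2.40 to 3.66 for NCR3. With 4 against 5 tumours the smallest exact p is 0.0159, which limits these fits.

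The count of called genes among further receptors and adaptors was 3, and 7 without housekeeping scaling, 8 with BH, 0 with DV200 and 0 with the replicate block, and between 1 and 5 with a tumour left out. Over the panel it was 85, and 235 without housekeeping scaling, 188 with BH, 0 with DV200, 1 with the replicate block (228 by BH) and 39 to 98 with a tumour left out.

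The labels number the tumours 1 to 5 in both stages, but these are different dogs, and the deviations of same-numbered tumours correlated between -0.20 and 0.16, with 1 of 10 tumours closest to its own number, so the numbers were not treated as pairs. With the replicate block KLRK1 was -1.80 and NCR1 -1.71, neither called (BY adjusted p 0.170 and 0.154 in limma). The block's ratios were 1.98 for KLRB1 over KLRD1, -2.65 for KLRD1 over NCR3, -2.00 for KLRK1 over NCR3, -1.91 for NCR1 over NCR3 and 3.10 for NCR3 over the CD3 genes, none of which can pass, since 5 sign flips allow no p below 0.0625.

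Depth limits NCR1 in early CCH and NCR3 at both stages, which lie near the negative probes. In the DV200 fit the covariate nearly separates the stages, and the DV200 of late 5 in the labels differs from that in the study's sample sheet.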

Other observations

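Late 3 differed from the other late tumours in opposite directions for different receptors. It held the lowest late values of KLRK1 (938.03), KLRD1 (171.63), KLRB1 (71.24), KLRA1 (80.96), CD96 (262.30), TIGIT (399.39) and SLAMF7 (412.34), but the highest late value of NCR1 (140.33) and of CD247 (140.33). Its CD3 mean log2 level, 10.63, was the lowest of the late tumours. This was seen after the values were known and was not tested.

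In early CCH, early 3 held the highest level of KLRK1 (838.97), SLAMF7 (288.22) and the CD3 genes (mean log2 level 10.37), whereas early 4 held the highest KLRB1 and KLRD1, so the early tumours with the most of these receptors were not the same for each.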
